A study of Mus musculus with 12 samples.

Results

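The genes described here encode 10 proteins with which a tumor calls in and sustains myeloid cells: the CC chemokines Ccl2, Ccl5, Ccl7 and Ccl8, the CXC chemokines Cxcl1, Cxcl12 and Cxcl16, and the growth factors and matrix cytokines Csf1, Tgfb1 and Spp1. They were named for that role and not selected by a cutoff on measured values, though with earlier results of these data known. They are 10 of 38898 genes in the transcript tables. All 10 passed the filter on low counts that left 17602 genes for testing. RNA was sequenced from 12 tumors grown by injecting Rd76-9 murine rhabdomyosarcoma (RMS) cells into the flank of wild-type C57/Bl6J mice aged 8 to 12 weeks and collected on day 16. The groups of 3 tumors were vehicle (m1 to m3), vincristine (VCR) at 0.25 mg/kg (m4 to m6), RCM1 in folic acid nanoparticles (RCM1-NPFA) at 8 µg per injection (m7 to m9), and VCR + RCM1-NPFA at the same doses (m10 to m12). VCR blocks microtubule assembly, and RCM1 is a small molecule inhibitor of the transcription factor FOXM1. The treatment label of m1 to m3 mentions the RCM1 nanoparticle next to the empty particle, although their titles call them controls and the paper gives them empty particles with saline, and they were used as vehicle. Animal sex was not given in the sources used here. The paper states that the Rd76-9 line came from a female mouse, so Y-linked RNA in a tumor would come from its host. Y-linked genes were high in m3 of vehicle, m4 and m6 of VCR, m8 and m9 of RCM1-NPFA, and m11 and m12 of the combination. They were low in m1, m2, m5, m7 and m10. By this reading host sex was uneven between vehicle and the treated groups, and m3 was the only vehicle tumor with a high level. The study asked whether the drug pair acts on the tumor beyond either drug, and for these genes that becomes a question of which signals to myeloid cells differed between the groups.

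Chemokines bind receptors with a G protein on leukocytes and draw those cells along a gradient. In solid tumors Ccl2 and Ccl7 recruit monocytes through Ccr2, and Csf1, through its receptor Csf1r, keeps the macrophages that arise from them alive. Malignant cells, fibroblasts, endothelial cells and the leukocytes themselves can all release these proteins, so RNA from a whole tumor does not name the source.

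The tissue label was compared with defining markers. The myoblast genes Cdh15 and Myf5 were present in every tumor, at 78.1 to 115.6 and 38.8 to 59.9 TPM (a level scaled to transcript length and library size). The myogenic regulators Myod1 and Myog were at or near 0 in vehicle, with at most 0.0306 and 0.0767 TPM, and Pax7 did not exceed 0.0554 TPM in any tumor. Macrophage RNA was abundant: the 12 macrophage and monocyte markers together gave 3762 to 5316 TPM per tumor, led by Lyz2 with a mean of 1964 TPM. The 6 neutrophil markers gave 11.9 to 26.2 TPM in sum, led by Csf3r with a mean of 7.03 TPM, and the neutrophil surface gene Ly6g did not exceed 0.0718 TPM. The 9 T and NK cell markers gave 7.22 (m3) to 52.3 TPM (m1), led by Nkg7 at a mean of 6.01 TPM. The 6 dendritic cell markers gave 4.39 to 11.1 TPM, led by Zbtb46. The 5 keratinocyte markers gave at most 4.66 TPM, led by Krt10. Adult muscle fibre RNA varied most in absolute TPM: its 12 markers, led by Acta1, gave 101 to 269 TPM in vehicle, 1976 to 12270 TPM after VCR, 265 to 21370 TPM after RCM1-NPFA (highest in m9) and 584.5 to 5302 TPM after the combination. The 6 adipocyte markers, led by Cfd, ranged from 0.45 TPM (m12) to 136.4 TPM (m2). Total estimated counts were 29342195 to 32108055 per tumor, so depth differed little.

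Levels between genes were ordered by mean TPM over the 12 tumors. Spp1, the secreted glycoprotein osteopontin, led at 1711 TPM, then came Cxcl12 at 454.2 TPM and Csf1 at 224.5 TPM, and the ranges of these genes did not overlap. Tgfb1 (102.8 TPM), Ccl8 (100.1 TPM), Cxcl16 (88.5 TPM) and Ccl2 (75.5 TPM) followed, with overlapping ranges between neighbours. Ccl7 (40.1 TPM), Ccl5 (39.1 TPM) and Cxcl1 (36.3 TPM) were the least abundant and could not be ordered beyond their spread. Even the lowest rounded count of a member in a tumor was 86 (Ccl8), so counting noise was small beside the differences between tumors. Those differences were unequal among members. The coefficient of variation of Ccl8 over the 12 tumors was 59.8%, higher than in 94.7% of the tested genes, followed by Cxcl1 at 40.9%, Ccl5 at 38.2% and Ccl7 at 33.2%. Cxcl12, Csf1 and Tgfb1 varied by 11.1%, 11.3% and 11.8%, below the 15.2% median of all tested genes.

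**Figure D1:**
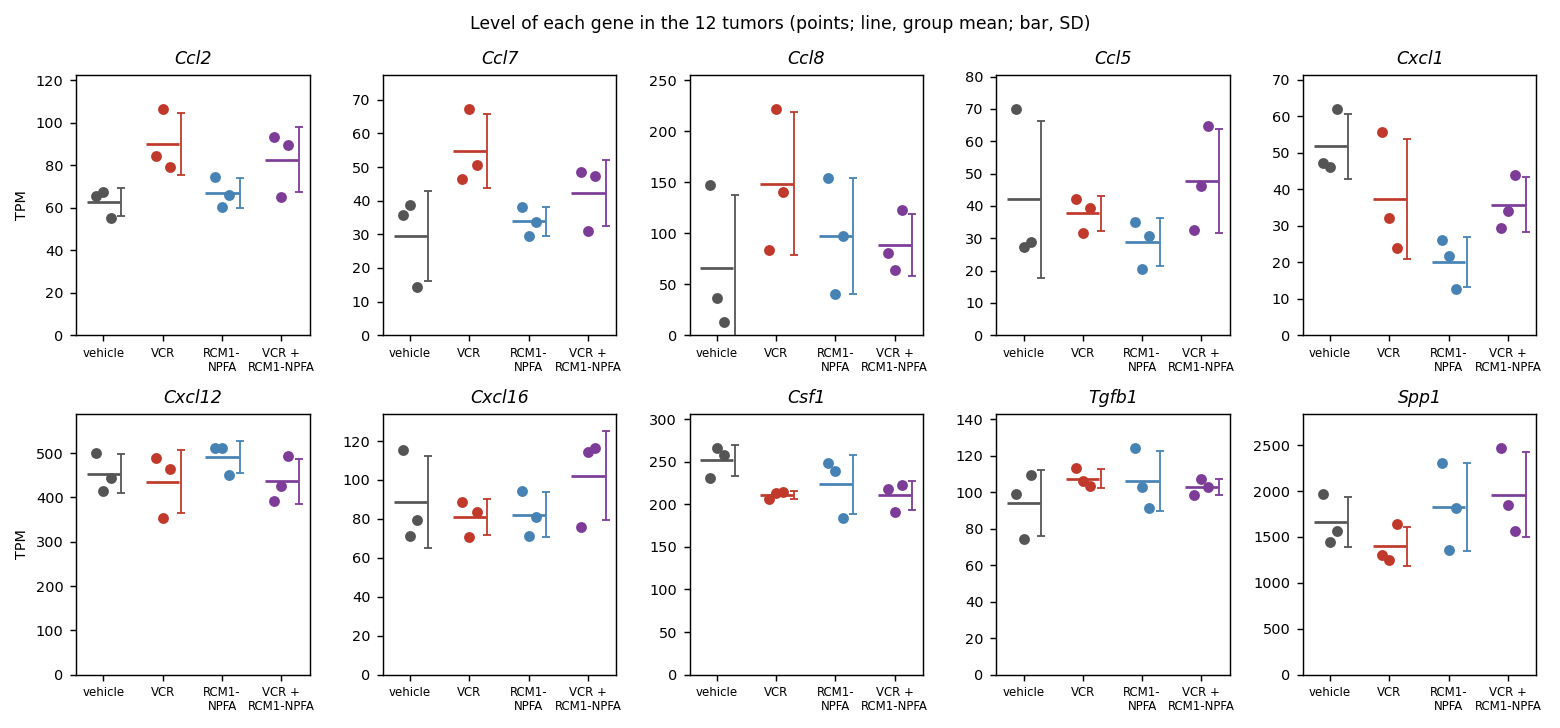
Level of each of the 10 genes in TPM (vertical axes, from 0) in every tumor of the 4 groups. Points are tumors, lines are group means and bars are SDs with n = 3, cropped at 0 for Ccl8 in vehicle. Ccl2 and Ccl7 of the VCR tumors sit above all vehicle tumors, and Cxcl1 of the RCM1-NPFA tumors sits below them.

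Genes were tested with edgeR over all 17602 genes, and a gene was called when its adjusted p was below 0.1. After VCR, 1 of the 10 members was called against vehicle, where 5.55% of all genes were. Unadjusted p was under 0.05 for 2 members, Ccl2 and Ccl7, in a comparison in which 22.1% of genes reached it. DESeq2 called the same 2 genes, at a share of 14.4% of genes. The members as a set therefore stood near the background. In the other 7 comparisons edgeR called 0 members and 0% of genes. Unadjusted p was under 0.05 for 1 member with RCM1-NPFA against vehicle (9.78% of genes), for 1 with the combination against vehicle (7.31%), for 0 with the combination against VCR (5.26%) and for 1 with the combination against RCM1-NPFA (2.07%). It was under 0.05 for 2 members in the VCR main effect (10.5%), 1 in the RCM1-NPFA main effect (2.49%) and 1 in the interaction of VCR and RCM1-NPFA (13.8%). DESeq2 called 1 member with RCM1-NPFA against vehicle (1.52% of genes) and 1 in the VCR main effect (1.19%). It called 0 members with the combination against vehicle (0.362%), 0 in the interaction (2.84%), and 0 in the remaining 3 comparisons, where it called 0% of genes. limma-voom called 681 genes after VCR and 0 genes elsewhere, with 0 members in any comparison. The comparisons against vehicle share tumors m1 to m3, and the others reuse tumors of the same 4 groups.

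Groups were also compared tumor by tumor in TPM. VCR and vehicle tumors did not overlap for 3 members, Ccl2 and Ccl7 (higher) and Csf1 (lower), beside 21.8% of all tested genes. RCM1-NPFA and vehicle did not overlap for 1 member, Cxcl1 (9.43% of genes), and the combination and vehicle for 2, Cxcl1 and Csf1 (11.2%). The combination and VCR overlapped for all 10 members, while 12.2% of genes did not overlap. The combination and RCM1-NPFA did not overlap for 1 member, Cxcl1 (6.43%). In counts scaled to library size by TMM (CPM), Csf1 overlapped in both of its comparisons and Cxcl1 overlapped between the combination and vehicle, while Ccl7 separated the combination from VCR. Those 4 separations thus depended on the unit.

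Ccl2, the main attractant of Ccr2-bearing monocytes, was at 65.7, 67.3 and 55.1 TPM in the vehicle tumors, at 84.1, 106.6 and 79.1 TPM after VCR, at 74.4, 60.3 and 65.8 TPM after RCM1-NPFA, and at 93.1, 65.0 and 89.6 TPM after the combination. All 3 VCR tumors exceeded all 3 vehicle tumors, m5 most, and m11 of the combination stood at the level of vehicle. The mean was 62.7 ± 6.6 TPM (SD, n = 3) in vehicle and 89.9 ± 14.7 TPM (SD, n = 3) after VCR. Ccl2 rose by a log2 fold change of 0.62 (SE 0.17, adjusted p = 0.087, edgeR), or 1.54-fold. This call was close to the threshold. It was lost when any of m1, m2, m3, m4, m5, m10, m11 or m12 was left out, with adjusted p of 0.154, 0.183, 0.121, 0.224, 0.332, 0.111, 0.115 and 0.111, and by limma-voom (adjusted p = 0.102). Over all alternatives the log2 fold change stayed between 0.43 and 0.72 and the adjusted p between 0.0103 and 0.332.

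Ccl7, a second ligand of Ccr2, was at 35.7, 38.7 and 14.2 TPM in vehicle, 46.3, 67.4 and 50.7 TPM after VCR, 38.3, 29.6 and 33.8 TPM after RCM1-NPFA, and 48.6, 30.9 and 47.4 TPM after the combination. The VCR tumors were again above every vehicle tumor, and m3 was the lowest of all 12. The log2 fold change after VCR was 1.01 (SE 0.30), and its adjusted p of 0.103 missed the threshold in edgeR. DESeq2 called it with an adjusted p of 0.0118. It was also called when m6 or m9 was left out, with adjusted p of 0.0976 and 0.0993. Over the alternatives its adjusted p ran from 0.0118 to 0.374.

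Ccl8, an attractant of monocytes and T cells, was at 147.4, 36.3 and 12.9 TPM in vehicle, 83.5, 222.4 and 140.1 TPM after VCR, 154.4, 40.6 and 97.4 TPM after RCM1-NPFA, and 80.3, 63.7 and 122.5 TPM after the combination. Groups overlapped in all 5 pairwise comparisons, m1 of vehicle was as high as several treated tumors, and the vehicle tumors alone spanned 11.5-fold. The log2 fold change after VCR was 1.36 with an SE of 0.71 (adjusted p = 0.283, edgeR), so the spread between tumors was too large to tell it from 0. Leaving out each tumor gave values from 0.87 to 2.70, the highest without m1, and Ccl8 was not called in any of these fits.

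Ccl2, Ccl7 and Ccl8 lie in a row on chromosome 11, at chr11:82035577-82037452, chr11:82045712-82047525 and chr11:82115185-82116799 (GRCm38, plus strand). The RefSeq annotation places Ccl11, at chr11:82057832-82062955, and Ccl12, at chr11:82101845-82103399, between them, so that 5 protein-coding genes share 81223 bases. These neighbours were singled out after their values were seen. Ccl12, another Ccr2 ligand, stood at 58.2, 63.7 and 41.0 TPM in vehicle and at 64.9, 71.3 and 71.1 TPM after VCR. Ccl11, an attractant of eosinophils, stood at 3.11, 3.27 and 2.35 TPM in vehicle and at 3.85, 4.46 and 4.14 TPM after VCR. Thus VCR tumors lay above vehicle for 4 of the 5 genes, all but Ccl8, where 21.8% of all tested genes did not overlap, although the log2 fold changes of Ccl11 (0.60, SE 0.24, adjusted p = 0.179, edgeR) and Ccl12 (0.46, SE 0.24, adjusted p = 0.269, edgeR) missed the threshold. Among the members the levels of Ccl2 and Ccl7 ran together across tumors (r = 0.865 on log2 CPM over 12 tumors, a description), as did those of Ccl7 and Ccl8 (r = 0.831). The transcripts of Ccl2, Ccl7 and Ccl8 shared 0 of their 1138, 771 and 481 31-base words with any other gene of the GENCODE annotation, so reads of these relatives were separable.

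Markers of other cells moved with this comparison. There edgeR called 5.55% of all genes and DESeq2 14.4%, and 22.1% had an unadjusted p under 0.05 in edgeR. Of the 6 fibroblast markers, led by Col3a1, 2 rose after VCR: Dcn by a log2 fold change of 1.28 (SE 0.30, adjusted p = 0.075, edgeR) and Col1a1 by 0.76 (SE 0.20, adjusted p = 0.087, edgeR). The Dcn call was lost without m2, m4, m5, m11 or m12 (adjusted p of 0.183, 0.213, 0.305, 0.117 and 0.102), and the Col1a1 call without m1, m2, m3, m4, m5, m10, m11 or m12 (0.137, 0.214, 0.103, 0.231, 0.315, 0.114, 0.120 and 0.111). The fibroblast sum nevertheless overlapped, with 722.5 to 991.2 TPM in vehicle and 773.3 to 979.7 TPM after VCR. Of the 6 endothelial markers, led by Cdh5, 1 rose (Tie1, 0.81, SE 0.19, adjusted p = 0.076, edgeR), with 5 of the 6 at an unadjusted p under 0.05, all higher, and their sum was 61.1 to 87.5 TPM in vehicle and 84.7 to 108.9 TPM after VCR. The Tie1 call was lost without m2, m4, m5, m11 or m12 (adjusted p of 0.183, 0.213, 0.315, 0.118 and 0.104). Of the 12 muscle fibre markers 5 rose (Acta1, Myh1, Myh2, Mylpf and Tnnc2). Of the 8 rhabdomyosarcoma and myoblast markers, led by Cdh15, 3 rose (Des, Myod1 and Myog). All 8 of these calls were lost without m2 (adjusted p of 0.156 to 0.217), m4 (0.213 to 0.224), m5 (0.280 to 0.317) or m11 (0.115 to 0.132), and some of them without m1, m3, m10 or m12. Among the tested macrophage (12 of 12), neutrophil (4 of 6), dendritic cell (6 of 6), T and NK cell (9 of 9), adipocyte (6 of 6) and keratinocyte (1 of 5) markers edgeR called 0, while 2 of the 12 macrophage markers (Itgam and Mertk, both lower) and 1 dendritic cell marker had an unadjusted p under 0.05. DESeq2 called 1 macrophage and 1 dendritic cell marker and limma-voom 0. Of the lists with calls, DESeq2 called 2 fibroblast, 4 endothelial, 12 muscle fibre and 4 rhabdomyosarcoma and myoblast markers, and limma-voom 2, 1, 1 and 2. The part of these cells in the rise of Ccl2 was not tested, and in a bulk tumor fewer cells of a type and less RNA per cell cannot be told apart. Tumor m9, with the most muscle fibre RNA, had 65.8 TPM of Ccl2 and 33.8 TPM of Ccl7, inside the range of vehicle. Without m5 and m9, the tumors richest in muscle RNA, the log2 fold change of Ccl2 was 0.43 and was no longer called (adjusted p = 0.302, edgeR).

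RCM1-NPFA alone left Ccl2 at a log2 fold change of 0.13 (SE 0.17, adjusted p = 0.843, edgeR), Ccl7 at 0.25 (SE 0.30) and Ccl8 at 0.67 (SE 0.71). With the combination the values were 0.40 (SE 0.17, adjusted p = 0.682, edgeR) for Ccl2, 0.53 (SE 0.30) for Ccl7 and 0.50 (SE 0.71) for Ccl8. That Ccl2 was called after VCR and not after the combination does not show that the effects differ. Tested directly, the combination against VCR gave −0.22 (SE 0.16, adjusted p = 0.855, edgeR) for Ccl2, −0.47 (SE 0.30, adjusted p = 0.855, edgeR) for Ccl7 and −0.86 (SE 0.70, adjusted p = 0.860, edgeR) for Ccl8. Over all 12 tumors the VCR main effect was 0.44 for Ccl2 (SE 0.12, adjusted p = 0.396, edgeR; adjusted p = 0.0587, DESeq2) and 0.64 for Ccl7 (SE 0.21, adjusted p = 0.410, edgeR).

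Cxcl1 attracts neutrophils through Cxcr2. It was at 47.2, 46.15 and 62.2 TPM in vehicle, 55.8, 32.3 and 24.0 TPM after VCR, 26.1, 21.8 and 12.6 TPM after RCM1-NPFA, and 29.5, 34.0 and 44.0 TPM after the combination. Every RCM1-NPFA tumor was below every vehicle tumor and below every tumor of the combination, with m9 the lowest of the 12, whereas VCR tumors spread across the range of vehicle and below. The mean was 51.8 ± 9.0 TPM (SD, n = 3) in vehicle and 20.1 ± 6.9 TPM (SD, n = 3) after RCM1-NPFA. The log2 fold change was −1.34 (SE 0.34), the largest in size of any member against vehicle apart from Ccl8 after VCR. It missed the threshold in edgeR (adjusted p = 0.419), as did every gene in that comparison, and passed in DESeq2 (adjusted p = 0.0085). Over the alternatives the value stayed between −1.56 and −1.08, and the adjusted p between 0.0085 and 0.848. The combination against RCM1-NPFA gave 0.79 (SE 0.34, adjusted p = 1.00, edgeR), and the interaction gave 1.19 (SE 0.48, adjusted p = 0.321, edgeR), so a difference between the effects of VCR with and without RCM1-NPFA was not called. Markers of other cells also differed between RCM1-NPFA and vehicle: DESeq2 called 10 of the 12 muscle fibre markers, 1 fibroblast marker and 1 rhabdomyosarcoma and myoblast marker. There edgeR and limma-voom called 0, and edgeR had 12, 2 and 4 at an unadjusted p under 0.05. Of all genes, 9.78% had an unadjusted p under 0.05 in edgeR and DESeq2 called 1.52%. Of the 6 endothelial markers 4 had an unadjusted p under 0.05 in edgeR, all higher, with 0 called by the 3 tools. The 6 adipocyte markers had log2 fold changes of −3.96 to −2.99, with 0 called by any of these tools and 3 at an unadjusted p under 0.05 in edgeR. Their sum was 77.6 (m1), 136.4 (m2) and 0.465 TPM (m3) in vehicle and 3.9 to 11.1 TPM after RCM1-NPFA. Vehicle tumor m3 was thus below every RCM1-NPFA tumor. The muscle fibre sum was 265 TPM in m7 and 304 TPM in m8, near the 269.3 TPM of vehicle tumor m1. In m9 it was 21370 TPM. Tumor m9 was both the lowest in Cxcl1 and the highest in muscle fibre RNA. The part of these other cells in the Cxcl1 difference was not tested.

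Cxcl2, a close relative of Cxcl1 and named here after its values were seen, was at 1.94, 4.37 and 5.04 TPM in vehicle, 7.59, 4.86 and 2.89 TPM after VCR, 2.02, 1.72 and 1.82 TPM after RCM1-NPFA, and 2.52, 3.53 and 4.54 TPM after the combination. The combination tumors were all above the RCM1-NPFA tumors, as for Cxcl1, while vehicle tumor m1 overlapped them. Its log2 fold change with RCM1-NPFA was −1.01 (SE 0.43, adjusted p = 0.478, edgeR). The receptor Cxcr2 was at 0.319 to 0.706 TPM in the 12 tumors, and its level was unrelated to that of Cxcl1 (r = 0.0022). Cxcl1 shared 0 of its 1932 31-base words with other genes, Cxcl2 and Cxcl3 included.

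The promoter table of RefSeq (GRCm38.p6) held 6 of the 10 members, Ccl8, Cxcl1, Cxcl12, Csf1, Tgfb1 and Spp1, the last with 2 starts. The 50 bases after the start were found in an annotated transcript for each of these members except Spp1. The 250 bases before the start of transcription were searched on both strands for the NF-κB consensus and for the AP-1 consensus TGANTCA. Of 32851 promoters in the table, 3.9% held the first and 6.75% the second. Among the members the NF-κB consensus occurred in Cxcl1, 71 to 61 bases before the start as a pair of overlapping matches on opposite strands, and in Csf1, 154 to 145 bases before it, and the AP-1 consensus occurred in none. A match is a description of the letters and not a bound site. The Cxcl1 promoter, at chr5:90890995-90891244 on the plus strand, is shown because Cxcl1 was the member lowest after RCM1-NPFA, and that of Ccl8, at chr11:82114935-82115184 on the plus strand, because Ccl8 varied most, with any match in capitals.
Cxcl1: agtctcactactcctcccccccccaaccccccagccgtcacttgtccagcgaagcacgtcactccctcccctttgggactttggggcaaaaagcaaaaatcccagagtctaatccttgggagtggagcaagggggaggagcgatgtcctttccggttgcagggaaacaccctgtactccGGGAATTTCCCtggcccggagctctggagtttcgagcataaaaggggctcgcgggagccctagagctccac
Ccl8: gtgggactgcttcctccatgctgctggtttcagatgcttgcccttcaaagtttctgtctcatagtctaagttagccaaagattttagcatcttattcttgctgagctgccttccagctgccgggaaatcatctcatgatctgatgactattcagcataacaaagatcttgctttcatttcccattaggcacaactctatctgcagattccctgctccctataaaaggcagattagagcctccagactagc

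Ccl5, which attracts T cells and monocytes and is itself made by T and NK cells, was at 70.1, 27.3 and 28.9 TPM in vehicle, 42.1, 31.5 and 39.4 TPM after VCR, 34.9, 20.5 and 30.8 TPM after RCM1-NPFA, and 32.7, 46.2 and 64.7 TPM after the combination. The highest tumors were m1 of vehicle and m12 of the combination, and no group stood apart. The log2 fold changes against vehicle were −0.04 (SE 0.35), −0.49 (SE 0.35) and 0.21 (SE 0.35) after VCR, RCM1-NPFA and the combination, with adjusted p of 0.960, 0.696 and 0.907 (edgeR). Tumor m1 set much of this: without it the value after VCR was 0.48. Against RCM1-NPFA the combination gave 0.70 (SE 0.35, adjusted p = 1.00, edgeR).

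Cxcl16, a chemokine anchored in the membrane that also takes up oxidized lipoprotein and binds Cxcr6 on T cells, was at 115.6, 71.1 and 79.2 TPM in vehicle, 88.6, 70.6 and 83.7 TPM after VCR, 94.1, 71.2 and 80.9 TPM after RCM1-NPFA, and 75.7, 114.6 and 116.5 TPM after the combination. The tumors m1, m11 and m12 were high, and groups overlapped throughout. Its log2 fold changes against vehicle were −0.06, −0.08 and 0.21 in the same order, each with an SE of 0.20. Most of the RNA assigned to Cxcl16, 80.6% of its TPM, went to a transcript that RefSeq lists as non-coding. Exons of Cxcl16, at chr11:70454389-70459984 on the minus strand, overlap those of Zmynd15 on the other strand by 552 bases, and 18.5% of its 31-base words occur there. Zmynd15 was at 10.2 to 24.1 TPM. It was highest in m1 (24.1 TPM), m12 (20.7 TPM) and m11 (20.5 TPM), the tumors that were also high in Cxcl16. The labels name a stranded kit but call the libraries non-stranded, so reads in the overlap may not be separable.

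Ccl5 and Cxcl16 ran together (r = 0.870 on log2 CPM over 12 tumors, a description). They also tracked leukocyte genes in a family of 20 relations, between each member and a receptor or the mean of the 12 macrophage markers on log2(TPM + 0.1), with 100000 permutations. Cxcl16 went with Cxcr6 (Pearson r = 0.786, permutation p = 0.00209, adjusted p = 0.0184; Spearman rho = 0.727, permutation p = 0.00974, adjusted p = 0.0487; n = 12), with r = 0.874 without m1 and m3 and 0.779 within groups. The macrophage mean went with Ccl5 (r = 0.754, permutation p = 0.005, adjusted p = 0.025; rho = 0.846, permutation p = 9.6e-04, adjusted p = 0.0082) and with Cxcl16 (r = 0.757, permutation p = 0.00276, adjusted p = 0.0184; rho = 0.846, permutation p = 9.2e-04, adjusted p = 0.0082). Without m3 and m12 these r were 0.777 and 0.864, and within groups 0.806 and 0.727.

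A further 20 relations, with the means of the 9 T and NK cell markers and of the 6 fibroblast markers, were added after the data were seen and adjusted among themselves. Ccl5 followed the T and NK cell mean (r = 0.896, permutation p = 8e-05, adjusted p = 0.0016; rho = 0.881, permutation p = 3.2e-04, adjusted p = 0.0064), with r = 0.915 without m1 and m3 and 0.909 within groups. Cxcl16 did so as well (r = 0.841, permutation p = 7.5e-04, adjusted p = 0.005; rho = 0.825, permutation p = 0.0017, adjusted p = 0.0155), with 0.868 without m1 and m3 and 0.883 within groups. Ccl8 followed the fibroblast mean (r = 0.869, permutation p = 2.9e-04, adjusted p = 0.0029; rho = 0.804, permutation p = 0.00233, adjusted p = 0.0155). Tumors m2 and m3, the lowest in this mean of log2 values, gave part of this, and r was 0.616 without them and 0.876 within groups. In summed TPM of the same markers m2 was the lowest tumor at 722.5 TPM, but m3 was the highest of vehicle at 991.2 TPM. Relations with that sum were not tested. Ccl2 followed the fibroblast mean less closely (r = 0.635, permutation p = 0.0246, adjusted p = 0.0983; rho = 0.706, permutation p = 0.0129, adjusted p = 0.0645), with 0.581 without m2 and m3 and 0.560 within groups. For Ccl7 the same mean gave r = 0.694 (permutation p = 0.0161, adjusted p = 0.0808), while rho was 0.643 (permutation p = 0.0275, adjusted p = 0.110). Whether more cells or more RNA per cell lie behind a relation was not tested.

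**Figure D2:**
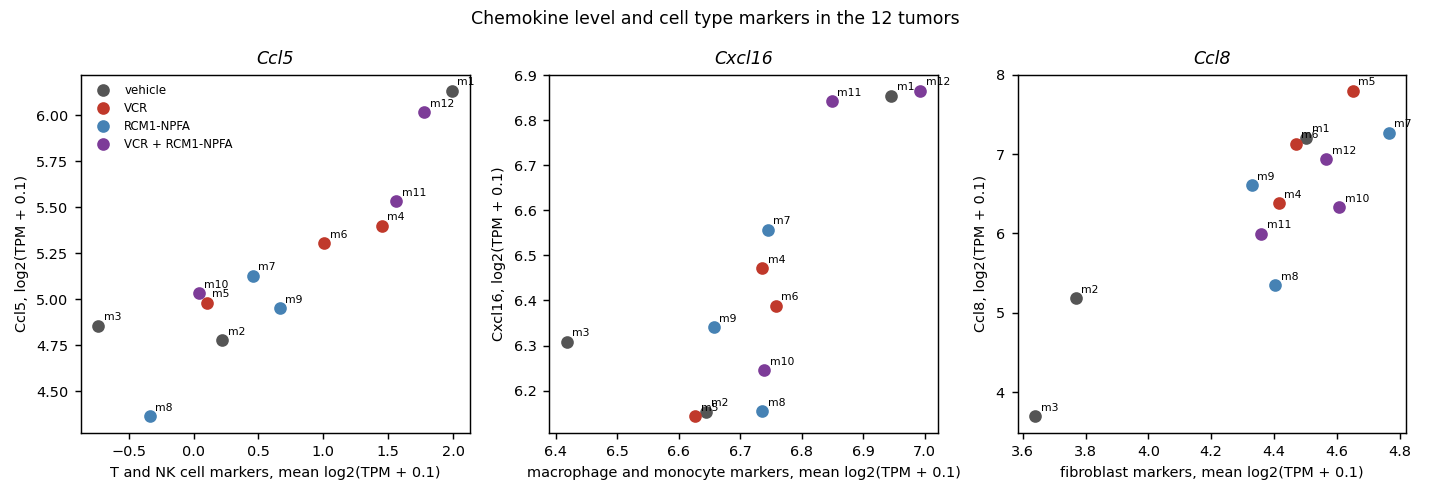
Level of Ccl5, Cxcl16 and Ccl8 (vertical axes, log2(TPM + 0.1)) against the mean of T and NK cell, macrophage and monocyte, and fibroblast markers (horizontal axes, mean log2(TPM + 0.1)) in the 12 tumors, colored by group. Pearson r was 0.896, 0.757 and 0.869 from left to right, and m3 sits low on all 3 horizontal axes.

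Cxcl12 holds Cxcr4-bearing cells near stroma. It ran from 354.1 TPM (m5) to 512.1 TPM, and its log2 fold changes against vehicle were −0.0031, 0.13 and −0.04 after VCR, RCM1-NPFA and the combination, each with an SE of 0.13. Groups overlapped in all 5 pairwise comparisons. The shortest of its 3 listed transcripts carried 79.9% of its TPM. Cxcr4 was at 30.02, 22.8 and 29.2 TPM in vehicle, 18.4, 19.7 and 18.1 TPM after VCR, 22.8, 25.6 and 21.0 TPM after RCM1-NPFA, and 24.4, 23.1 and 21.7 TPM after the combination. All VCR tumors were below all vehicle tumors and below all tumors of the combination. Cxcr4 fell by 0.47 on the log2 scale after VCR (SE 0.14, adjusted p = 0.099, edgeR), a call at the threshold. It was lost without m1, m2, m3, m4, m5, m6, m7, m10, m11 or m12 (adjusted p of 0.183, 0.156, 0.162, 0.246, 0.301, 0.119, 0.111, 0.114, 0.142 and 0.126) and by limma-voom (0.114). Cxcl12 and Cxcr4 were not related across tumors (r = 0.180, permutation p = 0.578; rho = 0.175, permutation p = 0.588; n = 12). The scavenger Ackr3, which removes Cxcl12, was at 49.8 to 71.55 TPM, and 0 of 3 tested atypical receptors were called by edgeR after VCR, with 2 at an unadjusted p under 0.05 and 0 called by DESeq2 or limma-voom. Of all genes in that comparison, edgeR called 5.55% and DESeq2 14.4%, and 22.1% had an unadjusted p under 0.05 in edgeR.

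Csf1, the growth factor on which macrophages depend, was at 231.5, 266.5 and 257.8 TPM in vehicle, 206.1, 213.8 and 214.4 TPM after VCR, 248.2, 239.0 and 183.9 TPM after RCM1-NPFA, and 218.2, 191.4 and 222.9 TPM after the combination. In TPM the vehicle tumors were above all VCR and all combination tumors. In CPM, the scale of the test, the groups overlapped, with 534.6 to 649.4 in vehicle and 509.5 to 566.8 after VCR. The log2 fold changes were −0.17 (SE 0.13, adjusted p = 0.467, edgeR) after VCR, −0.12 (SE 0.13) after RCM1-NPFA and −0.26 (SE 0.13, adjusted p = 0.692, edgeR) after the combination. Its receptor Csf1r stood at 133.2 to 188.7 TPM and was unrelated to Csf1 (r = 0.149, permutation p = 0.647; rho = 0.0629, permutation p = 0.851; n = 12). The longest of its 3 listed transcripts carried 89.1% of its TPM.

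Tgfb1, which restrains immune cells and drives matrix production, ran from 74.15 TPM (m2) to 124.4 TPM (m7), with log2 fold changes of 0.25, 0.19 and 0.11 against vehicle in the order above, each with an SE of 0.16. None was called by edgeR, and the groups overlapped. Of 10 genes for the storage and activation of latent TGF-β, led by Ltbp3, 1 fell after VCR: Itgb8, an integrin chain that activates it, from 1.265, 0.553 and 0.513 TPM in vehicle to 0.216, 0.231 and 0.394 TPM (log2 fold change −1.40, SE 0.41, adjusted p = 0.099, edgeR). The Itgb8 call was lost without m1, m2, m4, m5, m10, m11 or m12 (adjusted p of 0.227, 0.166, 0.262, 0.340, 0.117, 0.141 and 0.126). DESeq2 called 2 of the 10 and limma-voom 0. Of 7 TGF-β response genes, led by Tgfbi at a mean of 216.3 TPM, edgeR called 0, with 2 at an unadjusted p under 0.05 (Id1 and Pmepa1, both higher), while DESeq2 called 1 and limma-voom 0. Of all genes after VCR, edgeR called 5.55% and DESeq2 14.4%, and 22.1% had an unadjusted p under 0.05 in edgeR. The median log2 fold change after VCR was 0.09 over the storage genes and 0.25 over the response genes, beside 0.0016 over all tested genes.

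Spp1, which binds Cd44 and integrins on macrophages and tumor cells, was at 1973, 1450 and 1562 TPM in vehicle, 1306, 1245 and 1636 TPM after VCR, 2306, 1354 and 1817 TPM after RCM1-NPFA, and 2471, 1845 and 1569 TPM after the combination. The tumors m7 and m10 were the highest, and groups overlapped in every comparison. The log2 fold changes against vehicle were −0.18, 0.16 and 0.22, each with an SE of 0.19, and the combination against VCR gave 0.40 (SE 0.19, adjusted p = 0.855, edgeR). Of its 31-base words 14.3% occur in Gm42793, an unclassified gene on the same strand. Spp1 went with Cd44 across tumors (r = 0.693, permutation p = 0.0131, adjusted p = 0.0522; rho = 0.657, permutation p = 0.0243, adjusted p = 0.0972; n = 12), with r = 0.578 without m4 and m8 and 0.663 within groups. In this first family 5 of 20 relations had both adjusted p below 0.1, and the other 15 had r between −0.28 and 0.63. That of Ccl7 with Ccr2 (r = 0.630, permutation p = 0.0691; rho = 0, permutation p = 1) depended on single tumors: leaving out each tumor gave r as low as −0.25, and r was −0.18 without m1 and m3.

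**Figure D3:**
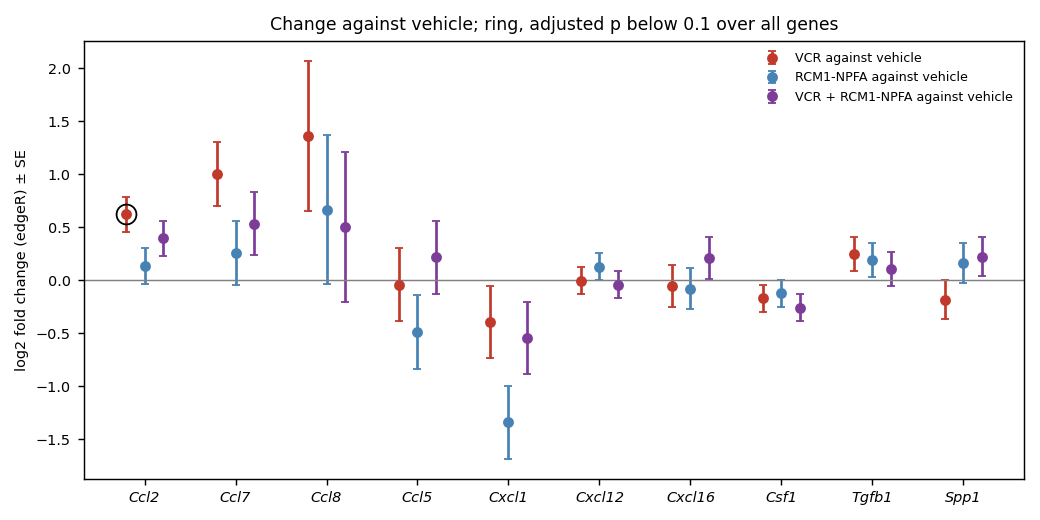
Log2 fold change (vertical axis, edgeR) of each of the 10 genes (horizontal axis) in the 3 treated groups against vehicle, with bars of 1 SE and n = 3 per group. The ring marks the single change with an adjusted p below 0.1, Ccl2 after VCR at 0.62, and the lowest value is Cxcl1 after RCM1-NPFA at −1.34.

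Receptors and related genes were read from lists, and their counts after VCR stand beside 5.55% of all genes called by edgeR, 22.1% at an unadjusted p under 0.05 and 14.4% called by DESeq2. Of 14 receptors of the members 13 were tested, Csf1r was the most abundant at a mean of 153.5 TPM, and Cxcr4 was the 1 called by edgeR, after VCR, where DESeq2 called 2 and limma-voom 0. Ccr2 was at 26.8, 16.2 and 5.05 TPM in vehicle, the last in m3, the tumor that was also lowest in Ccl7 and Ccl8. Cxcr6 was lowest in m3 as well, at 0.0583 TPM, and highest in m1, at 3.23 TPM. Tumor m3 was also the only vehicle tumor high in Y-linked genes, and a part of host sex in its low values was not tested. Of 25 other chemokines 23 were tested and 1 was called after VCR by edgeR, Ccl17, an attractant of Ccr4-bearing T cells: it was at 2.875, 1.19 and 0.977 TPM in vehicle and 4.49, 5.22 and 2.73 TPM after VCR. Tumor m1 reached the range of the VCR tumors, and the log2 fold change was 1.32 (SE 0.38, adjusted p = 0.099, edgeR). The call was lost without m2, m3, m4, m5, m7, m8, m10, m11 or m12 (adjusted p of 0.235, 0.152, 0.238, 0.361, 0.107, 0.105, 0.123, 0.141 and 0.126). An unadjusted p under 0.05 was reached by 7 of these chemokines, and DESeq2 called 5 and limma-voom 0. Pf4, stored by platelets and also made by macrophages, was the most abundant of them at 97.0 TPM. Of 13 other myeloid growth factors and cytokines 10 were tested, Mif was the most abundant at 1097 TPM, and Vegfa, which acts on endothelial cells and monocytes, was called: from 149.3, 183.4 and 177.1 TPM in vehicle it fell to 125.5, 101.2 and 117.6 TPM after VCR (log2 fold change −0.52, SE 0.13, adjusted p = 0.080, edgeR), with no overlap. The Vegfa call was made by limma-voom as well (adjusted p = 0.085) and was lost without m2, m3, m4, m5, m11 or m12 (0.176, 0.103, 0.213, 0.315, 0.125 and 0.109). Of 8 NF-κB response genes, led by Nfkb2, and of 7 proteases that process chemokines, led by Mmp14, edgeR called 0 after VCR, with 1 and 4 at an unadjusted p under 0.05. DESeq2 called the same numbers, 1 and 4, and limma-voom 0. The median log2 fold change after VCR was −0.02 over the members, −0.04 over the receptors, 0.35 over the other chemokines, 0.04 over the other growth factors, −0.09 over the NF-κB genes and −0.22 over the proteases, beside 0.0016 over all tested genes. In the other 7 comparisons edgeR called 0 genes of these lists and 0% of all genes. At most 6 of a list had an unadjusted p under 0.05 in edgeR. These were 6 of the 23 other chemokines in the interaction, 3 higher and 3 lower, beside 13.8% of genes. In the combination against vehicle 3 of the 8 NF-κB response genes reached it, all lower, beside 7.31% of genes. In these 7 comparisons limma-voom called 0. DESeq2 called 1 of the other growth factors in the combination against vehicle (0.362% of genes) and 1 in the VCR main effect (1.19%).

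For each member the genes with the most similar profile were ranked by Pearson r of log2 CPM over the 12 tumors among 13617 genes with a mean of at least 1 TPM, as a description. They were Podn, Ten1 and Aurkaip1 for Ccl2 (r 0.925 to 0.886), Fxyd6, Apod and Mmp3 for Ccl7 (0.967 to 0.929), and Adgrd1, Fndc1 and Dpep1 for Ccl8 (0.976 to 0.941). They were Ssh3, Nod1 and Trafd1 for Ccl5 (0.965 to 0.953), and Csf3r, Ikbke and Prkcd for Cxcl16 (0.951 to 0.935). For Cxcl1 they were Kdsr, Hps6 and Tigd5 (0.884 to 0.857), for Cxcl12 Tmem268, Serinc3 and Zfp972 (0.879 to 0.873), and for Csf1 Rpl23a, Rpl22 and Taf1a (0.933 to 0.916). Tgfb1 had Npdc1, Pxdc1 and Leng8 (0.935 to 0.927), and Spp1 had Lhfpl2, Chsy1 and Prkg2 (0.892 to 0.886).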

How the data were processed

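Poly-A RNA was sequenced from 12 tumors. The authors quantified reads with kallisto, per the labels with GRCm38, and deposited an estimated count and a TPM per RefSeq transcript; kallisto's version is not given in the sources used here. All 120299 transcripts matched the RefSeq table (GRCm38.p6) and were summed per gene symbol. Estimated counts were rounded, filtered with filterByExpr (minimum count 10) and scaled by TMM. All 12 tumors were fitted together with edgeR 4.0.16 quasi-likelihood tests (R 4.3.3) and Benjamini-Hochberg adjustment over 17602 genes, with 8 contrasts. DESeq2 1.42.0 and limma 3.58.1 (voom) served as alternatives. The pipeline was tested on simulated counts. Levels are TPM, and CPM is TMM-scaled. Relations used log2(TPM + 0.1) and 2-sided permutation tests; 1 relation past the threshold is not reported here. Named genes are the 10 members and 3 similar profiles per member. From each list the most abundant gene and every gene called by edgeR (at most 5) are named. Some genes outside this rule are also named, such as receptors, neighbouring genes and markers. Members and lists were chosen with earlier results of these data known. In the main fits p-values measure the spread between the 3 tumors within a group, pooled over all groups and shared in part across genes. Permutation p-values of the relations come from shuffling all 12 tumors without regard to group. The alternatives were other scaling, filters, tests, thresholds, a covariate for Y-linked genes, and tumors left out.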

Additional observations from a re-analysis of the deposited data

How the results depend on the processing

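After VCR the count of called members depended on the processing. It was 1 (Ccl2) with edgeR, with DESeq2 size factors and with other filters. It was 0 by limma-voom, at an adjusted p under 0.05, when only the groups compared were fitted, without m5 and m9, and with a covariate marking tumors whose Y-linked genes exceeded 1 CPM. Those genes split the tumors into m1, m2, m5, m7 and m10 at 0.529 to 1.30 CPM and the other 7 at 16.2 to 26.0 CPM, 1 in vehicle and 2 in each treated group, so that the limit of 1 CPM put m1, m2 and m10 with the high tumors. It was 2 (Ccl2 and Ccl7) by DESeq2 and with that covariate set at 5 CPM, which follows the split, an alternative chosen after seeing the data. Leaving out each tumor gave 0 to 2. Because the line came from a female mouse, the covariate at 5 CPM may stand for host sex, which was uneven between vehicle and the treated groups. The count of all genes called went from 977 to 0 without m2, m4 or m5 and to 1 without m11. DESeq2 also called 1 member in each of RCM1-NPFA against vehicle (Cxcl1) and the VCR main effect (Ccl2). In CPM in place of TPM, 0 members separated the combination from vehicle, and 1 separated it from VCR. The relations past the threshold numbered 5 with either pseudocount.

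Of 54 log2 fold changes followed, 34 kept their sign under every alternative, among them those of Ccl2, Ccl7 and Ccl8 after VCR and of Cxcl1 after RCM1-NPFA. The other 20, of which the largest in size was −0.49 (Ccl5 after RCM1-NPFA), changed sign in places, and the cause was not tested. By limma-voom Ccl5 after VCR was 0.060 and the RCM1-NPFA main effect of Ccl8 was 0.14. With the Y-linked covariate at 1 CPM Cxcl12 after VCR was 0.029. With it at 5 CPM the RCM1-NPFA main effect was 0.0029 for Ccl2, 0.037 for Ccl7 and 0.27 for Ccl8. Without m5 and m9, values after VCR were 0.031 for Ccl5 and 0.081 for Cxcl12, Csf1 after RCM1-NPFA was 0.013, and the RCM1-NPFA main effect was 0.059 for Ccl2, 0.00991 for Ccl7 and 0.15 for Ccl8.

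Leaving out each tumor gave ranges after VCR of −0.29 to 0.48 for Ccl5, −0.10 to 0.087 for Cxcl12 and −0.23 to 0.14 for Cxcl16. After RCM1-NPFA they were −0.73 to 0.035 for Ccl5, −0.052 to 0.48 for Ccl7, −0.24 to 0.12 for Cxcl16, −0.20 to 0.015 for Csf1 and −0.034 to 0.33 for Spp1. After the combination they were −0.099 to 0.74 for Ccl5, −0.17 to 0.044 for Cxcl12 and −0.068 to 0.29 for Tgfb1. In the VCR main effect they were −0.0045 to 0.32 for Cxcl1, −0.010 to 0.18 for Tgfb1 and −0.16 to 0.037 for Spp1. In the RCM1-NPFA main effect they were −0.11 to 0.049 for Ccl2, −0.27 to 0.15 for Ccl5, −0.26 to 0.0075 for Ccl7, −0.34 to 0.58 for Ccl8, −0.019 to 0.093 for Cxcl12 and −0.058 to 0.12 for Tgfb1. No paired analysis was possible because each tumor number occurs in 1 group.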
